A study of Mus musculus with 24 samples.

Results

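The comparison described here sets mouse skin sampled 8 weeks after a JAK1 inhibitor was withdrawn, when the disease can return, against healthy skin. Its members were found by the group in the sample labels and number 12 of the 24 libraries of the series, 6 of the group 8w off Tx and 6 of the group Healthy. Every mouse was a female of the inbred strain C3H/HeJ of about 30 weeks, and dorsal skin was sampled at week 12 of the study. C3H/HeJ mice can be given alopecia areata (AA) by a skin graft, and the study describes the mice used as having fully developed disease. The 8w off Tx mice were AA mice whose food held the JAK1 inhibitor Cmpd A, at a daily dose near 100 mg/kg, for 4 weeks, and which then lived without it for 8 weeks. The healthy mice had neither the disease nor a treatment. The series text gives 12 weeks of dosing, whereas the sample names and the methods of the study give 4 weeks, which is used here. The same 6 off-treatment mice had given a biopsy at 4 weeks, so they were followed over time, and those libraries are not compared here. The group AA holds 6 alopecic mice of the same sampling week, untreated by the study's account. Their sample titles read Vec12w, which may name a vehicle and is not explained. AA is used below where off-treatment skin is set against disease without the inhibitor. Each group comes from 6 mice by the study's account, and nothing states that same-letter libraries of different groups share an animal or litter. The disease is induced by a graft, and the treatment is a single compound at a single dose. The comparison therefore holds the induction, the past treatment and the return of disease together and cannot tell them apart. Any difference in the stage of hair growth, described below, is held together with them.

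Alopecia areata is an autoimmune hair loss in which CD8 T cells that carry the receptor NKG2D gather around growing hair follicles. Interferon-gamma from these cells signals through JAK1 and JAK2, and in follicle cells and keratinocytes this raises chemokines that draw more T cells, interferon-inducible GTPases of cell-autonomous defence and MHC class I, which the healthy growing follicle keeps low. Interleukins that share the common gamma chain signal through JAK1 and JAK3 and sustain the T cells. Hair follicles cycle through growth (anagen), regression (catagen) and rest (telogen). Hair shaft and inner root sheath keratins are made mainly by the growing follicle. The study's skin sections showed telogen in healthy mice and induction of anagen in AA and relapsed mice. It also states that the number of anagen follicles was back to normal off treatment, with counts that varied widely between mice. The part of hair cycle stage in the hair, matrix, pigment, bulge and cell cycle genes below was not tested. In whole skin, a lower level of a marker can come from fewer cells of a type or from less RNA per cell, which cannot be told apart here.

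The interferon response acts through short DNA elements, and the promoters of 4 genes that carry the rise described below are shown to make these elements visible. The letters were searched on both strands in the 250 bases before each annotated start. TTCNNNGAA is the gamma-activated site of the interferon-gamma response (GAS). TTTC followed after any 2 bases by TTTC again is the core that interferon regulatory factors bind (ISRE, with GAAA on the other strand). Capitals mark the matches, sequences run 5′ to 3′ on the strand of the gene, and the bases and positions are those of RefSeq on GRCm38.p6, which is a C57BL/6J genome and not the C3H/HeJ genome of the mice.
Igtp (chr11:58199436-58199555, + strand): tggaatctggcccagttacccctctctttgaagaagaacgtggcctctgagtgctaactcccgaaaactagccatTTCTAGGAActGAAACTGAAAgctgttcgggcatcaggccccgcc
Gm12185 (chr11:48927183-48927302, - strand): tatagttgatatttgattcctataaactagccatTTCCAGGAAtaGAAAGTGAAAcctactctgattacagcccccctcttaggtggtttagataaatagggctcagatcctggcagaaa
Irf1 (chr11:53769894-53770013, + strand): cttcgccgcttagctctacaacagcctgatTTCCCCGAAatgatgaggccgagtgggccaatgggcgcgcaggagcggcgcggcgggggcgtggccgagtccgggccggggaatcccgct
Gbp2 (chr3:142620543-142620662, + strand): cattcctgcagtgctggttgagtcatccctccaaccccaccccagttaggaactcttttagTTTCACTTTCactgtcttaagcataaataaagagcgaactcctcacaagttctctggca
Igtp and Gm12185, both immunity-related GTPases, hold a GAS and an ISRE match side by side. Irf1, the transcription factor that carries the interferon-gamma signal onward, is marked for its GAS match, and Gbp2, a guanylate-binding protein, for its ISRE match. Of 32851 promoters in the table, 7.02% hold the GAS letters and 2.98% the ISRE letters. Among the 13 promoters found for 12 of the interferon-inducible GTPase genes, 7 (53.8%) hold GAS and 11 (84.6%) hold ISRE. Of 32 promoters of 27 antiviral interferon-stimulated genes, 5 (15.6%) hold GAS and 10 (31.2%) hold ISRE, and of 18 promoters of 16 MHC class I and peptide loading genes 2 (11.1%) and 3 (16.7%) do. A match describes the letters in this window and is not a measured binding site.

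Total counts were 3444193 to 5766105 per library in 8w off Tx and 3649611 to 6407908 in healthy skin, and the deposited counts were tested by edgeR across 16248 genes. Levels are given below as CPM, reads scaled to library size after TMM normalization, and log2 fold changes with their standard error. The skin keratins Krt5, Krt14, Krt1 and Krt10 were present in all 12 libraries, with the lowest value at 802 CPM. Off-treatment libraries A and E stood apart. Reads of the hair keratins and their associated proteins summed to 136 CPM in A and 27.2 CPM in E, against 2815 to 6839 CPM in B, C, D and F and 33.8 to 349 CPM in the healthy libraries. Mitochondrial reads took 7.0% of A and 7.57% of E, the highest of the 12 libraries, against 2.38% to 5.95% in healthy skin. The 15 skeletal muscle genes on the list, all tested, summed to 90030 CPM in A and 100481 CPM in E. Over all 6 off-treatment libraries that sum ran from 20778 to 100481 CPM, and over the healthy libraries from 1129 to 67896 CPM. Healthy A and E held the least muscle, at 1337 and 1129 CPM. No muscle gene passed the test between the groups, with a median log2 fold change of 1.04 with all 6 libraries and of 0.48 without A and E. List counts below are therefore also given without off-treatment A and E, and the part of muscle, RNA quality or mitochondrial reads in any difference was not tested beyond the fit without healthy A and E.

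The off-treatment skin differed from healthy skin across the transcriptome. At an adjusted p below 0.05, 2753 genes (16.9% of those tested) were higher and 2558 (15.7%) lower in 8w off Tx. At the thresholds of the study, an adjusted p below 0.001 and a change of over 4-fold, 268 (1.65%) were higher and 83 (0.511%) lower. All 6 off-treatment libraries lay above all 6 healthy libraries for 700 genes (4.31%) and below them for 758 (4.67%). Without off-treatment A and E, 16680 genes were tested, of which 2827 (16.9%) were higher and 2582 (15.5%) lower. Of the genes tested in both fits, 2345 were higher and 2123 lower in each, 408 and 435 were called only with all 6 libraries, 430 and 416 only without A and E, and 0 were called in opposite directions. The number past the study thresholds was 351 with all 6 libraries and 459 without A and E, of which 323 were shared. Without healthy A and E, the libraries with the fewest muscle reads, 3840 genes passed an adjusted p below 0.05 and 140 the study thresholds. With only the 2 groups in the fit, 120 passed the study thresholds. The median log2 fold change over all genes was 0.01 with all 6 libraries and -0.01 without A and E, and the medians of gene lists below are read against these values. Counts of list members are likewise read against the shares of all genes given above. On the TPM values that the authors also deposited, left uncentred, the median gene moved by -0.61 and 2.83% of the calls were higher, against 51.8% in the counts and 48.3% once each library was centred on its median gene. Directions below are therefore relative to the bulk of the genes, and some genes that rose turn negative on uncentred TPM where this is said.

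**Figure D1:**
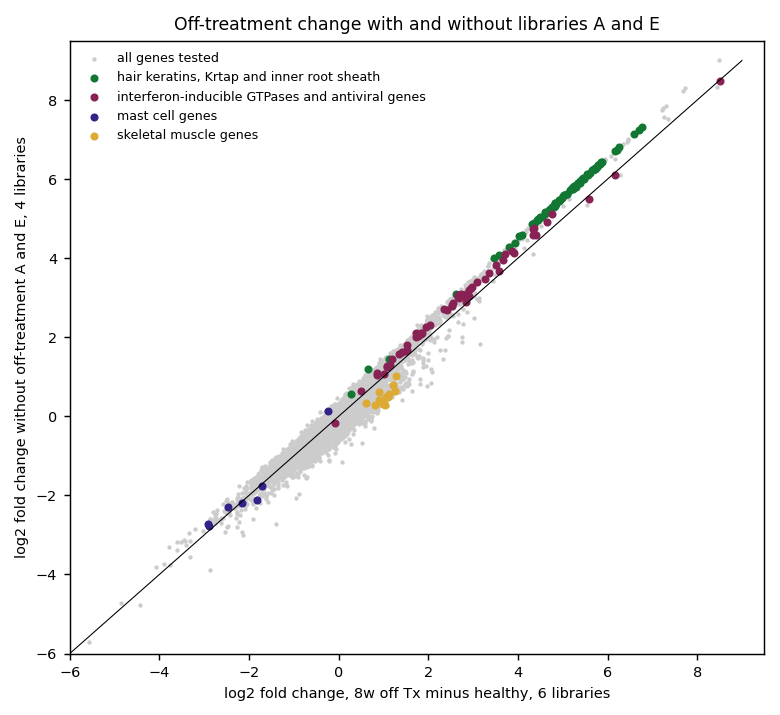
Log2 fold change of 8w off Tx against healthy skin with all 6 off-treatment libraries (x axis) and without A and E (y axis), 1 point per gene tested, with 4 groups of genes in colour and the line of equal values in black. The hair keratin genes lie above the line, the mast cell genes close to it and the muscle genes below it.

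Genes of cytotoxic CD8 T cells were among the largest rises. Cd8b1 (ENSMUSG00000053044, chr6:71322788-71337494, + strand), which encodes the CD8 beta chain, had 0 reads over the 6 healthy libraries and 212 over the off-treatment libraries, at 0.360 to 14.3 CPM (median 6.64). Against a floor of 3 counts over the healthy group this is at least 80.6-fold higher (adjusted p = 8.3e-05). Cd8a, the alpha chain of the co-receptor, lay at 0.176 to 1.03 CPM (median 0.461) in healthy skin and 7.92 to 41.8 CPM (median 26) off treatment, a log2 fold change of 5.54 ± 0.84 (adjusted p = 4.7e-06). Library A held the highest Cd8a level of the off-treatment libraries, 41.8 CPM, and E held 21.5 CPM, so both libraries with little hair keratin were above every healthy library. The other CD8 chain followed the same order, with Cd8b1 highest in A, and D was the lowest library for both.
Gzma and Gzmb, the granzymes that killer cells deliver to their targets, had 2 reads each over the healthy libraries against 390 and 375 off treatment, ratios of summed levels of 222 (95% counting interval 61.1 to 1842) and 214 (58.8 to 1771). Gzma lay at 3.06 to 29.8 CPM (median 11.6) off treatment, with 15.6 CPM in A and 4.20 CPM in E. No healthy library reached the lowest off-treatment value of either granzyme, and E was in the lower part of the off-treatment range. Of 13 cytotoxic and natural killer genes tested, 8 were higher and 0 lower with all 6 libraries and 8 and 0 without A and E, with 7 called in both, and the median log2 fold change was 1.07 and 1.18. Klrk1, which encodes NKG2D, rose by 1.07 ± 0.26 on the log2 scale (adjusted p = 0.0028), with 4.04 to 9.09 CPM (median 8.15) in healthy and 10.1 to 22.7 CPM (median 15.2) in off-treatment skin. Tnfsf10, the death ligand TRAIL, rose by 2.18 ± 0.22 (adjusted p = 5.9e-07). Prf1, the pore-forming perforin, lay at 4.22 to 10.9 CPM (median 6.76) and 4.56 to 12.2 CPM (median 6.18) and did not pass the test (adjusted p = 0.92). The 3 NKG2D ligand genes tested, H60b, H60c and Ulbp1, did not pass either. Of 10 common gamma chain cytokine and receptor genes, 4 were higher and 0 lower, and without A and E 5 and 0.

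The T cell receptor genes did not move as 1 group. Of 18 tested, 7 were higher and 3 lower, and without A and E 5 and 1. Lck, the kinase that starts T cell receptor signalling, rose by 1.28 ± 0.31 (adjusted p = 0.0029). Cd3e and Cd3g, parts of the CD3 complex of all T cells, had log2 fold changes of 0.28 and 0.05 and did not pass the test, and Cd3e turned negative on uncentred TPM. Cd4, the co-receptor of helper cells, lay at 2.46 to 5.14 CPM (median 3.52) in healthy and 0.663 to 2.61 CPM (median 1.24) in off-treatment skin and fell by 1.29 on the log2 scale (adjusted p = 0.028). Without A and E the change was -1.05 and no longer passed (adjusted p = 0.10), and A and E had the lowest Cd4 levels, 0.973 and 0.663 CPM. Among memory markers, Itgae, the integrin CD103 of T cells lodged in epithelium, rose by 1.05 ± 0.26 (adjusted p = 0.0032), and S1pr1, the receptor by which T cells leave tissue, fell, with a log2 fold change of -1.31 ± 0.23 (adjusted p = 1.9e-04). S1pr1 is also made by endothelium. Trdv4 and Tcrg-C1, T cell receptor segments found in epidermal gamma-delta T cells, had log2 fold changes of -1.25 (adjusted p = 0.0025) and -1.30 (adjusted p = 0.014). The epidermal gamma-delta list did not fall as a whole, and its largest log2 fold change was a rise of 2.75. The mean log2 difference of that list from the healthy mean was -0.44 to 0.81 in off-treatment and -0.75 to 0.44 in healthy libraries. Foxp3, the factor of regulatory T cells, did not pass (-0.36, adjusted p = 0.28). Pdcd1, the checkpoint receptor PD-1, rose by 2.96 ± 0.96 (adjusted p = 0.0071), and so did Tnfrsf9, the co-stimulatory receptor 4-1BB (2.21 ± 0.66, adjusted p = 0.0086). With and without A and E, 5 of 9 memory markers were higher and 1 lower, 2 of 12 checkpoint and regulatory genes were higher and 1 lower, and 1 of 4 epidermal gamma-delta genes was higher and 2 lower. Over all genes 16.9% were higher and 15.7% lower, so the checkpoint list held higher calls at about the rate of all genes.

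Interferon-gamma and the chemokines that follow it rose. Ifng itself had 2 reads over the healthy libraries and 66 off treatment, a ratio of 37.6 (95% counting interval 10 to 317), and lay at 0.360 to 5.21 CPM (median 1.74) in off-treatment skin. Tbx21, the T-bet factor of Th1 and cytotoxic cells, rose by 2.66 ± 0.66 (adjusted p = 0.0014), and Stat4, which carries interleukin-12 signals, by 1.75 ± 0.53 (adjusted p = 0.012). Ifngr1, the ligand-binding receptor chain, fell, at -0.67 ± 0.10 (adjusted p = 5.9e-05), with 98.3 to 149.5 CPM (median 116) in healthy and 65.9 to 85.5 CPM (median 74.1) in off-treatment skin. Over the 12 interferon-gamma and Th1 genes tested, 8 were higher and 2 lower, and without A and E 6 and 3.
The chemokines Cxcl9, Cxcl10 and Cxcl11 draw cells that carry Cxcr3. Cxcl9 lay at 1.58 to 8.93 CPM (median 5.31) in healthy and 18.1 to 392 CPM (median 106) in off-treatment skin, with 63.6 CPM in A, 18.1 in E and 85.7 to 392 in the other libraries. Its log2 fold change was 4.77 ± 0.63 (adjusted p = 2.0e-05) and 5.20 without A and E. Cxcl10 rose by 3.32 ± 0.45 (adjusted p = 1.7e-05) and Cxcl11, which the gene annotation of the reference marks as a polymorphic pseudogene, by 3.66 ± 0.52 (adjusted p = 2.5e-05). E was the lowest off-treatment library for all 3 and fell inside the healthy range for Cxcl11. Cxcr3 did not pass the test (0.56 ± 0.47, adjusted p = 0.38), whereas Cxcr6, a receptor of resident T cells, rose by 0.99 ± 0.26 (adjusted p = 0.0059) and Ccl5, a T cell attractant, by 2.77 ± 0.64 (adjusted p = 0.0014). Ccl11, the eosinophil attractant eotaxin, fell, at -1.01 ± 0.26 (adjusted p = 0.0041). Of 24 chemokine and receptor genes tested, 11 were higher and 2 lower, and without A and E 12 and 1.

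The interferon-inducible GTPases rose as a whole list. All 20 tested were higher with and without A and E, against 16.9% of all genes, with a median log2 fold change of 3.42 and 3.58. Igtp (ENSMUSG00000078853, chr11:58199556-58207591, + strand), whose GAS and ISRE letters are printed above, lay at 14.1 to 26.1 CPM (median 17.2) in healthy and 92.7 to 485 CPM (median 410.3) in off-treatment skin, a change of 4.34 ± 0.38 (adjusted p = 3.6e-07). A held 375 CPM and E held 92.7 CPM, so E was the lowest off-treatment library and still above every healthy library. Gm12185, the other GTPase whose promoter is shown, lay at 0.744 to 4.46 CPM (median 1.37) in healthy and 64.4 to 241 CPM (median 141) in off-treatment skin, and its log2 fold change of 6.16 ± 0.45 was 6.11 without A and E. Here A was the highest library, at 241 CPM. The same held for Gm4841, the largest rise under the rule for named genes, which lay at 0.396 to 2.23 CPM (median 0.503) in healthy and 124 to 665 CPM (median 385) in off-treatment skin (log2 fold change 8.50 ± 0.78, adjusted p = 4.3e-08), with 665 CPM in A. F830016B08Rik, another immunity-related GTPase, rose by 5.60 ± 0.39 (adjusted p = 5.4e-08). Iigp1, Irgm1 and Gbp2, GTPases that attack the vacuoles of intracellular pathogens, rose by 4.39, 3.26 and 2.36. Several of these genes are near-copies of each other, so reads may be split between them, and how reads with several matches were counted is not given in the sources used here. The mean log2 difference of the list from the healthy mean was 3.48 in A, 1.95 in E and 3.47 to 4.34 in the other off-treatment libraries, against -0.47 to 0.29 in healthy libraries.

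The wider interferon response rose with the GTPases. Of 38 antiviral interferon-stimulated genes tested, 36 were higher and 0 lower with and without A and E (median log2 fold change 1.85 and 2.10). Of the 38, 30 had all 6 off-treatment libraries above all 6 healthy ones, against 4.31% of all genes. Oas3, which senses double-stranded RNA, lay at 3.72 to 5.97 CPM (median 4.02) in healthy and 29.4 to 107 CPM (median 68.3) in off-treatment skin, with 53.8 CPM in A and 29.4 CPM in E, and rose by 3.91 ± 0.36 (adjusted p = 1.9e-07). Every off-treatment library was above every healthy library for Oas3. Stat2, which acts downstream of type I interferon, rose by 2.08 ± 0.21 (adjusted p = 5.9e-07) and Isg15, a ubiquitin-like modifier, by 3.35 ± 0.42 (adjusted p = 7.4e-06). Irf1, with the GAS letters shown above, lay at 45.3 to 60.8 CPM (median 48.5) and 60.6 to 261 CPM (median 172) and rose by 1.72 ± 0.29 (adjusted p = 1.7e-04). Its value in E, 60.6 CPM, was just under the highest healthy value, so the groups of Irf1 overlapped. Among the other JAK, STAT and SOCS genes the changes were small. Jak3, which pairs with the common gamma chain, rose by 0.60 ± 0.20 (adjusted p = 0.023) and Stat3 by 0.36 ± 0.09 (adjusted p = 0.0053), both negative on uncentred TPM, whereas Jak1, the target of the inhibitor, did not pass the test (-0.15 ± 0.08, adjusted p = 0.13) and was lower without A and E (-0.26, adjusted p = 0.016). Socs1, the feedback inhibitor of JAK signalling, had a change of 0.80 ± 0.38 (adjusted p = 0.11) with all 6 libraries and 1.08 (adjusted p = 0.017) without A and E. Of 21 such genes tested, 6 were higher and 1 lower, and without A and E 8 and 2. Il21r, the receptor of interleukin-21, rose by 2.97 ± 0.59 (adjusted p = 3.1e-04) and Il15ra, the chain that presents interleukin-15, by 0.41 ± 0.10 (adjusted p = 0.0021), the latter negative on uncentred TPM. Il15 itself did not pass (adjusted p = 0.41). Among 12 inflammatory cell death genes, 6 were higher and 0 lower, and without A and E 8 and 0. Mlkl, the executioner of necroptosis, rose by 1.67 ± 0.31 (adjusted p = 3.4e-04) and Casp1, the inflammasome caspase, by 0.56 ± 0.13 (adjusted p = 0.0015), both again negative on uncentred TPM.

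MHC class I and its loading machinery rose by a smaller amount than the GTPases, and MHC class II showed no such rise. Of 23 class I genes tested, 22 were higher and 0 lower with and without A and E (median log2 fold change 0.91 and 1.0). H2-T24, a class I heavy chain, rose by 1.84 ± 0.24 (adjusted p = 1.4e-05), Tap1, the peptide transporter, by 1.29 ± 0.18 (adjusted p = 3.2e-05), Psmb9, an immunoproteasome subunit, by 1.38 ± 0.21 (adjusted p = 5.9e-05) and Nlrc5, which drives class I transcription, by 1.19 ± 0.15 (adjusted p = 8.5e-06). H2-K1 and B2m, a classical heavy chain and the light chain of class I, rose by 0.63 and 0.43 on the counts, and both were negative on uncentred TPM. C3H/HeJ carries other H2 alleles than the C57BL/6J reference, and the effect of that on the H2 counts was not tested. Of 10 class II genes, 0 were higher and 2 lower with all 6 libraries, against 16.9% higher and 15.7% lower over all genes. Without A and E, 1 was higher and 2 were lower. Ciita, the class II transactivator, was the 1 that rose without A and E (0.82, adjusted p = 0.0066), against 0.57 (adjusted p = 0.078) with all 6 libraries. Of 7 immune privilege genes, 1 was higher and 2 lower with and without A and E, against 16.9% and 15.7% of all genes with all 6 libraries. Cd274, the checkpoint ligand PD-L1, rose by 2.04 ± 0.32 (adjusted p = 7.7e-05), and Tgfb2, a suppressive cytokine of the follicle, fell, at -0.64 ± 0.14 (adjusted p = 0.0011).

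**Figure D2:**
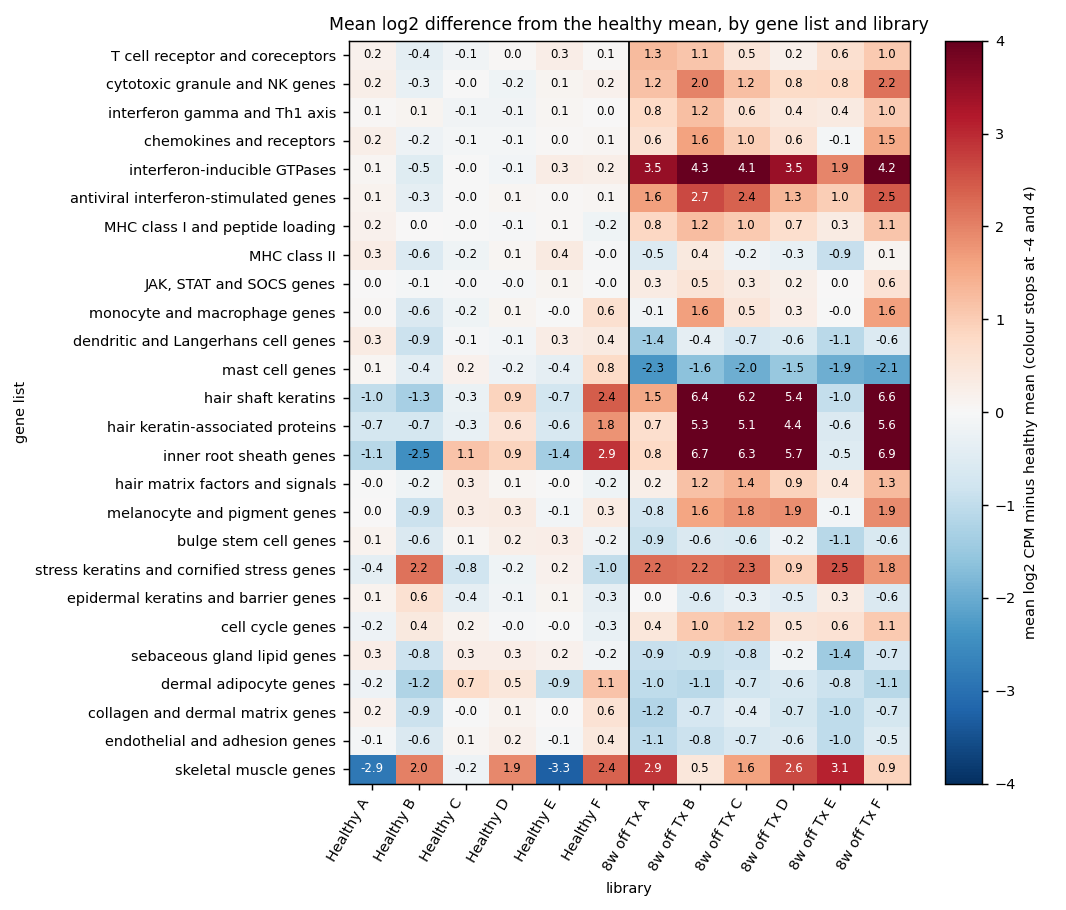
Mean log2 difference of each gene list from the healthy mean (colour, with values printed), for 26 lists and the 12 libraries compared. Interferon-inducible GTPases are above the healthy libraries in every off-treatment library, whereas hair shaft keratins, inner root sheath genes and pigment genes are above them only in B, C, D and F.

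Off-treatment A and E were set aside because they lack high hair keratin reads, so the split of the hair structural genes into B, C, D and F against A and E restates that choice and is given as a description. The larger medians of hair genes without A and E follow from the same choice. Of 15 hair shaft keratins tested, 14 were higher and 0 lower with and without A and E, with a median log2 fold change of 5.46 and 6.02, but 0 had all 6 off-treatment libraries above all 6 healthy ones. Krt33a, a hair cortex keratin, lay at 0 to 29.8 CPM (median 0.503) in healthy skin and at 0.221 to 654 CPM (median 359) in off-treatment skin, with 287 to 654 CPM in B, C, D and F against 8.43 CPM in A and 0.221 CPM in E. Krt71, a keratin of the inner root sheath, lay at 0 to 162 CPM (median 20.7) in healthy skin and 1444 to 3342 CPM in those 4 libraries, against 39.9 and 9.51 CPM in A and E, within the healthy range. Tchh, trichohyalin of the inner root sheath, showed the same split, at 3013 to 7215 CPM against 79.5 and 17.5 CPM. The log2 fold changes carried large standard errors, 5.66 ± 1.04 for Krt33a (adjusted p = 6.4e-04) and 5.33 ± 1.05 for Krt71 (adjusted p = 0.0023). With quality weights in limma-voom, Krt33a no longer passed (adjusted p = 0.09). Of 52 keratin-associated protein genes, 51 were higher with and without A and E (median 5.14 and 5.68), and Krtap5-1 had 0 reads in healthy and 73 in off-treatment skin, at least 27.7-fold higher. Of 10 inner root sheath genes, 9 were higher with all 6 libraries and 10 without A and E. Healthy F was the highest healthy library for the hair keratin sum, at 349 CPM, and A lay below it.

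**Figure D3:**
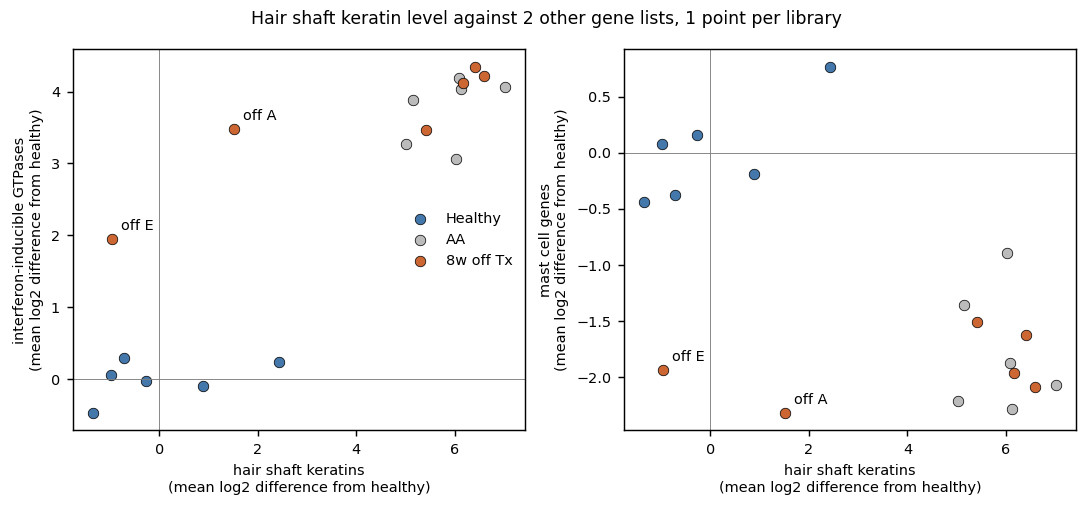
Mean log2 difference from the healthy mean of hair shaft keratins (x axis) against interferon-inducible GTPases (left) and mast cell genes (right), 1 point per library of healthy, AA and 8w off Tx skin. Off-treatment A and E lie apart from both groups, with few hair keratin reads beside raised GTPases and low mast cell genes.

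The regulators of the hair matrix, the dividing cells at the base of the growing follicle, split in part in the same way. Whether the split follows the hair cycle stage of each mouse was not tested. Lef1, a Wnt effector, rose by 2.21 ± 0.42 (adjusted p = 4.0e-04), with 39.1 to 67.2 CPM in B, C, D and F against 9.41 and 10.2 in A and E and up to 13.8 CPM in healthy skin. Shh, the signal of the growing follicle, lay at 0 to 0.850 CPM (median 0.159) in healthy and 0.649 to 7.82 CPM (median 5.02) in off-treatment skin and rose by 3.93 ± 0.73 (adjusted p = 4.4e-05). Its level was 4.42 CPM in E, close to the other libraries, and 0.649 CPM in A. Foxn1 and Msx2, factors of the matrix and shaft, rose by 1.61 and 2.62. Of 24 matrix genes, 15 were higher and 0 lower with and without A and E. Pigment genes also split. Trpm1, an ion channel of melanocytes, lay at 1.28 to 5.27 CPM (median 2.68) in healthy skin, at 20.3 to 26.2 CPM in B, C, D and F, and at 1.62 and 2.65 CPM in A and E, with a log2 fold change of 2.45 ± 0.55 (adjusted p = 0.0016). Mlana and Pmel, proteins of the pigment granule, rose by 3.03 and 1.53, and Mitf, the melanocyte factor, fell by 0.50 on the log2 scale (adjusted p = 0.044), a call lost without A and E (-0.25, adjusted p = 0.23). Of 13 pigment genes tested, 8 were higher and 1 lower, and without A and E 10 and 0. Of 15 dermal papilla genes, 3 were higher and 3 lower, about the rate of all genes (16.9% and 15.7%), and without A and E 4 and 1. Among them Crabp1, a retinoic acid binding protein, fell at -2.75 ± 0.42 (adjusted p = 3.3e-05), and Inhba, an activin subunit, rose by 1.99 ± 0.38 (adjusted p = 3.5e-04).
Cell cycle genes rose by a smaller amount. Of 26 tested, 25 were higher with and without A and E (median log2 fold change 0.85 and 1.04). Mki67, the proliferation marker, rose by 1.01 ± 0.18 (adjusted p = 1.9e-04), at 137 to 253 CPM (median 179.9) in healthy and 256 to 499.8 CPM (median 361) in off-treatment skin, with 256 CPM in A, the lowest of the 6, above the highest healthy value.

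Keratinocyte genes moved in 3 ways. Krt6a and Krt16, keratins of stressed and wounded epidermis, rose by 1.57 ± 0.28 (adjusted p = 2.8e-04) and 2.03 ± 0.58 (adjusted p = 0.012), and A and E, with 214 and 237 CPM of Krt16, lay at the level of the other libraries. Healthy skin lay at 12.3 to 185 CPM (median 22.5), and its highest value, in library B, was above off-treatment D, so the groups of Krt16 overlapped. Of 8 stress keratin and cornified stress genes, 6 were higher and 0 lower, and without A and E 5 and 0. Some genes of the bulge, where hair follicle stem cells rest, were lower. Krt15 lay at 870.0 to 1819 CPM (median 1666) in healthy and 331 to 775 CPM (median 382) in off-treatment skin (-1.73 ± 0.29, adjusted p = 1.4e-04), Cd34 changed by -1.74 ± 0.26 (adjusted p = 4.7e-05) and Fgf18, a signal that keeps the follicle at rest, by -2.52 ± 0.38 (adjusted p = 3.2e-05). A and E were below every healthy library for all 3, so these genes did not split as the hair keratins did. Of 13 bulge genes, 1 was higher, 6 were lower and 6 were not called with all 6 libraries, and 2 were higher and 6 lower without A and E. Lgr5, another stem cell marker, did not pass (adjusted p = 0.90). Epidermal keratins and barrier genes counted 1 higher and 4 lower of 14, and 1 and 6 without A and E. Krt2, a keratin of the upper epidermis of tail and ear skin, had the largest change, -4.43 ± 0.81 (adjusted p = 1.8e-04), with 0.680 to 71.8 CPM (median 22.6) in healthy and 0.579 to 2.88 CPM (median 1.26) in off-treatment skin. Casp14, a caspase of cornification, rose by 1.41 ± 0.27 (adjusted p = 5.1e-04). Krt10, the keratin of the spinous layer, was not called with all 6 libraries (-0.37, adjusted p = 0.26) and was lower without A and E (-0.84, adjusted p = 0.0074).

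Among innate cells, mast cell genes fell and did so in all 6 libraries. Of 7 tested, 0 were higher and 6 lower with and without A and E (median log2 fold change -2.16 and -2.20). In each of those 6 every off-treatment library lay below every healthy library, as for 4.67% of all genes. Cpa3, the mast cell carboxypeptidase, lay at 18.8 to 85.7 CPM (median 39.2) in healthy and 4.42 to 7.74 CPM (median 5.74) in off-treatment skin (-2.90 ± 0.37, adjusted p = 9.6e-06), with 4.87 CPM in A and 4.42 CPM in E. Mcpt4, a mast cell chymase, changed by -2.47 ± 0.31 (adjusted p = 8.5e-06), and Ms4a2, a chain of the IgE receptor, by -2.93 ± 0.53 (adjusted p = 7.7e-05). Kit, the stem cell factor receptor that melanocytes also carry, was the member that did not pass (adjusted p = 0.56). Ighm, the heavy chain of IgM, was the 1 of 4 B cell genes that rose with and without A and E (1.38 ± 0.35, adjusted p = 0.0047), and of 5 eosinophil and neutrophil genes 0 were higher and 2 lower, neither of them without A and E. Of 11 complement genes, 2 were higher (against 16.9% of all genes) and 0 lower, and without A and E 4 and 0. Of 11 dendritic and Langerhans cell genes, 1 was higher, 5 were lower and 5 were not called, and without A and E 1 was higher and 4 lower. Cd209a, a lectin of dermal dendritic cells, changed by -3.04 ± 0.39 (adjusted p = 6.5e-06) and Cd207, langerin of Langerhans cells, by -1.46 ± 0.21 (adjusted p = 2.5e-05), whereas Itgax, CD11c, rose by 1.07 ± 0.35 (adjusted p = 0.024). Macrophage genes were 7 higher and 1 lower of 18, and without A and E 8 and 1. Nos2, inducible nitric oxide synthase, rose by 3.78 ± 0.86 (adjusted p = 0.0013), with E (1.99 CPM) inside the healthy range of 0.176 to 2.18 CPM (median 1.76), and Cd163, a scavenger receptor of resident macrophages, fell, at -1.38 ± 0.25 (adjusted p = 3.1e-04). The mean log2 difference of the macrophage list was -0.13 in A and -0.00 in E, inside the healthy range, whereas it reached 1.64 in B and 1.65 in F.

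**Figure D4:**
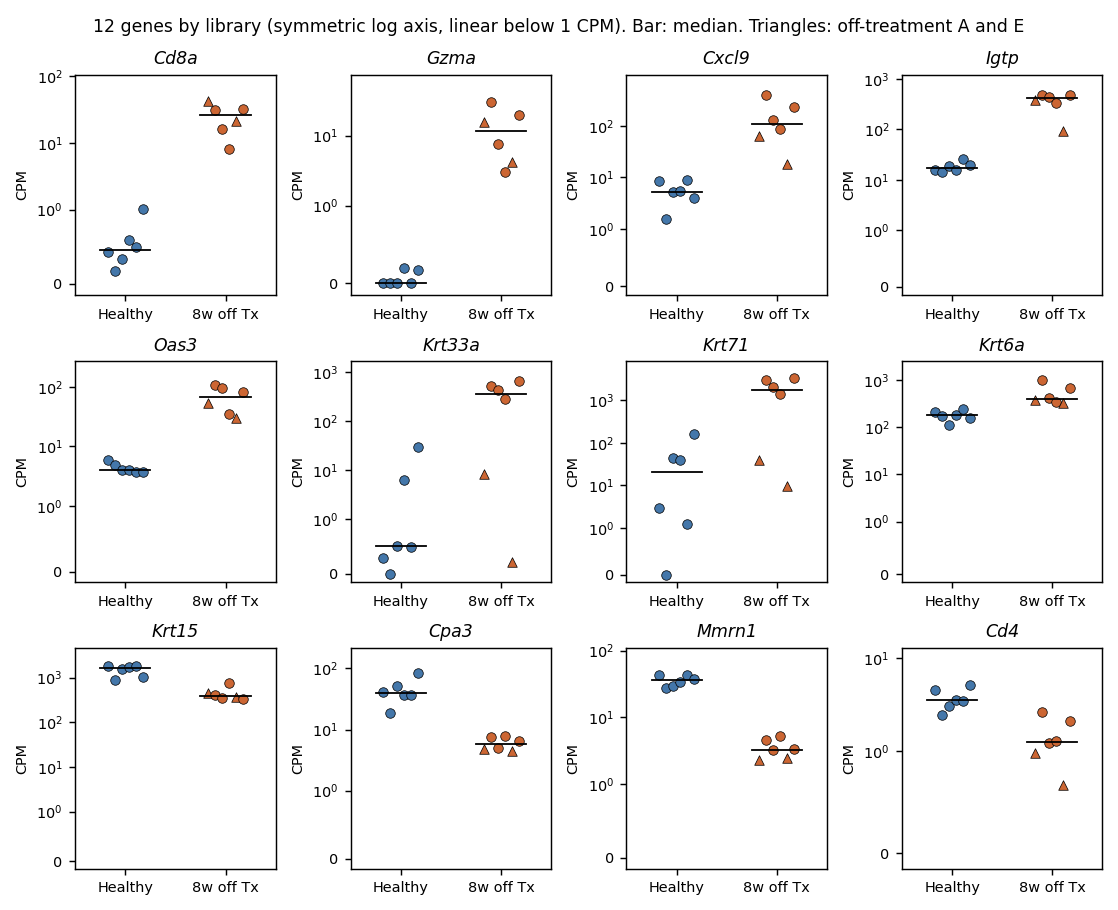
CPM of 12 genes in each healthy and 8w off Tx library on an axis that is logarithmic above 1 CPM and linear below, with the median as a bar and off-treatment A and E as triangles. The triangles sit with the other off-treatment libraries for Cd8a, Gzma, Oas3, Krt6a, Krt15, Cpa3 and Mmrn1, and with healthy skin for Krt33a and Krt71.

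Lower calls outnumbered higher ones in the vessel, dermal and fat lists. Of 14 endothelial genes, 2 were higher and 8 lower with and without A and E. The lymphatic genes Mmrn1, an extracellular protein of lymphatic endothelium, Flt4, the VEGF-C receptor, and Prox1, the lymphatic master factor, changed by -3.32 ± 0.29 (adjusted p = 1.0e-07), -2.35 ± 0.22 (adjusted p = 2.8e-07) and -1.74 ± 0.27 (adjusted p = 5.4e-05). Mmrn1 lay at 27.4 to 43.4 CPM (median 35.9) in healthy and 2.27 to 5.22 CPM (median 3.22) in off-treatment skin, with A at 2.27 and E at 2.43 CPM. Vcam1 and Icam1, which inflamed endothelium shows to white cells, rose by 1.21 and 0.64, the latter negative on uncentred TPM. Of 17 collagen and dermal matrix genes, 0 were higher and 9 lower, and without A and E 0 and 5. Dcn, decorin, lay at 215 to 919 CPM (median 721) in healthy and 115 to 192 CPM (median 148) in off-treatment skin (-2.16 ± 0.27, adjusted p = 1.1e-05) and kept a change of -2.07 without A and E, whereas Col3a1, a main dermal collagen, lost its call without them, at -0.81 (adjusted p = 0.032) with and -0.72 (adjusted p = 0.10) without A and E. Of 15 adipocyte genes, 0 were higher and 13 lower, and without A and E 0 and 12. Adipoq, the adipocyte hormone adiponectin, changed by -2.10 ± 0.41 (adjusted p = 6.7e-04) and Plin1, a lipid droplet coat protein, by -1.42 ± 0.35 (adjusted p = 0.0035). The 2 groups overlapped in every adipocyte gene, and the mean log2 difference of the list spread from -1.20 to 1.14 among the healthy libraries. Of 16 sebaceous gland lipid genes, 1 was higher and 8 lower, and without A and E 2 and 4. Scd3, a desaturase of the gland, changed by -2.80 ± 0.56 (adjusted p = 9.2e-04), while Awat2, a wax ester enzyme, was called only with A and E (adjusted p = 0.044 with and adjusted p = 0.14 without). Of 16 cholesterol synthesis genes 1 was higher and 2 lower, and without A and E 2 and 1. Of 12 Hox genes of body position 0 were higher and 1 lower with and without A and E.
Several of the largest falls were in genes outside these lists. Sphkap, an anchor protein of kinase A, lay at 1.76 to 12.2 CPM (median 8.03) in healthy and 0.186 to 0.965 CPM (median 0.533) in off-treatment skin (-3.76 ± 0.54, adjusted p = 7.0e-06). Pdzrn4 and Wfdc3, a PDZ-domain protein and a protein of the whey acidic protein family, changed by -3.62 ± 0.39 and -3.52 ± 0.43, and Alb, serum albumin, and the non-coding RNA Gpr141b by -3.61 ± 0.73 and -3.33 ± 0.47. Ifitm6, of the interferon-induced transmembrane family, was another and went down (-3.44 ± 0.31, adjusted p = 1.0e-07) while most other interferon-linked genes tested rose. Among the largest rises outside the lists, Ubd, a ubiquitin-like protein, and Apol10b, of the apolipoprotein L family, rose by 5.13 ± 0.68 (adjusted p = 4.8e-06) and 5.01 ± 0.70 (adjusted p = 3.1e-06). BC023105, a processed pseudogene, rose by 6.27 ± 0.64.

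Fewer genes passed the test against AA skin. At an adjusted p below 0.05, 118 genes (0.726% of 16248) were higher and 104 (0.64%) lower in 8w off Tx, and without A and E 48 and 74, of which 80 were called in both. The count depended on the method, with 18 when only the 2 groups were fitted, 603 with DESeq2 and 68 to 493 when each library was left out in turn. A gene that misses the threshold here is not shown to be at the same level in the 2 groups. By the study's hair scores, the mice followed off treatment had some hair at the start and at week 12. AA mice had almost none, so the extent of hair loss differed too, and its part was not tested. No member of the cytotoxic, interferon-gamma, GTPase, antiviral, MHC or hair keratin lists was called. Cxcl9 differed by 0.10 ± 0.53 and Gzmb by -0.43 ± 0.56, neither past the test (adjusted p = 0.94 and adjusted p = 0.72). Among keratinocyte stress and cornification genes some were lower than in AA. Krt6b, a stress keratin, lay at 6.66 to 130.3 CPM (median 34.6) off treatment and 97.8 to 943 CPM (median 479) in AA (-3.34 ± 0.71, adjusted p = 0.031). Sprr2a3, a cornified envelope protein, and Rptn, repetin, changed by -3.43 ± 0.80 (adjusted p = 0.038) and -2.58 ± 0.38 (adjusted p = 0.0012), and the call of Sprr2a3 was lost without A and E (adjusted p = 0.12). Krt6a, at -1.09 ± 0.28, did not pass (adjusted p = 0.053). Krt24, a type I keratin, was higher than in AA (2.78 ± 0.54, adjusted p = 0.0049) and still lower than in healthy skin (-1.91), and Tgm7, a transglutaminase, showed the same order (3.44 ± 0.77 against AA, -2.08 against healthy). Spink6, a protease inhibitor of skin, and the transcript Gm9989 were also higher than in AA (3.37 ± 1.16 and 3.29 ± 0.66), and Gm5478, a keratin-like gene, and Coch, cochlin, were lower (-2.35 ± 0.51 and -1.96 ± 0.44). Gm5559, a processed pseudogene with the largest rise, was 287 CPM in library C and at most 6.63 CPM in the other off-treatment libraries. Without C its log2 fold change was 0.68 (adjusted p = 0.43), so its call rests on 1 library.
The clock genes held the most calls of any list against AA, with 7 higher and 2 lower of 13. Against healthy skin 4 of them were higher and 4 lower, and without A and E 3 and 5. Per3, a repressor of the daily clock, lay at 27.2 to 52.2 CPM (median 38.4) in AA and 104 to 218 CPM (median 175) off treatment, and rose by 2.05 ± 0.21 (adjusted p = 1.3e-05). Per2, another repressor, rose by 2.18 ± 0.24 (adjusted p = 2.3e-05), and Dbp, a clock output factor, by 2.36 ± 0.33 (adjusted p = 5.7e-04). Tef, of the same family as Dbp, rose by 1.58 ± 0.20 (adjusted p = 2.4e-04). The activators went the other way, with Arntl (BMAL1) at -0.80 ± 0.12 (adjusted p = 0.0012) and Npas2 at -1.34 ± 0.27 (adjusted p = 0.014). Without A and E, Per2, Per3, Dbp, Tef and Arntl kept their calls, at 2.15, 1.82, 1.92, 1.31 and -0.79, and Npas2 lost its own (-1.25, adjusted p = 0.060). Against healthy skin Arntl and Npas2 were also lower (-0.88 and -1.68) and Per2 and Per3 higher (1.30 and 0.80), while Dbp and Tef did not pass (adjusted p = 0.27 and adjusted p = 0.59). The clock hour of sampling is not stated for any library, so whether it differed between groups was not tested. The Per3 promoter is printed because it holds 2 D-box matches, the letters TTATGNAA (bound by Dbp and Tef) found on either strand and shown in capitals, which occur in 3.07% of all promoters and 2 of 17 promoters of 12 clock genes (11.8%).
Per3 (chr4:151044666-151044890, - strand): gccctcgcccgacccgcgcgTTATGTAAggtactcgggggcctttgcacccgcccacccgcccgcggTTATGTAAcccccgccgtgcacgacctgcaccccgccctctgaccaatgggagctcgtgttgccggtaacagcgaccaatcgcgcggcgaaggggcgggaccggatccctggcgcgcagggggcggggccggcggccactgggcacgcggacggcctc
The match is a description of the letters in RefSeq on GRCm38.p6 and says nothing of binding. The E-box CACGTG, bound by Arntl with Clock or Npas2, is in 6.02% of all promoters and 5 of 17 clock gene promoters (29.4%).

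**Figure D5:**
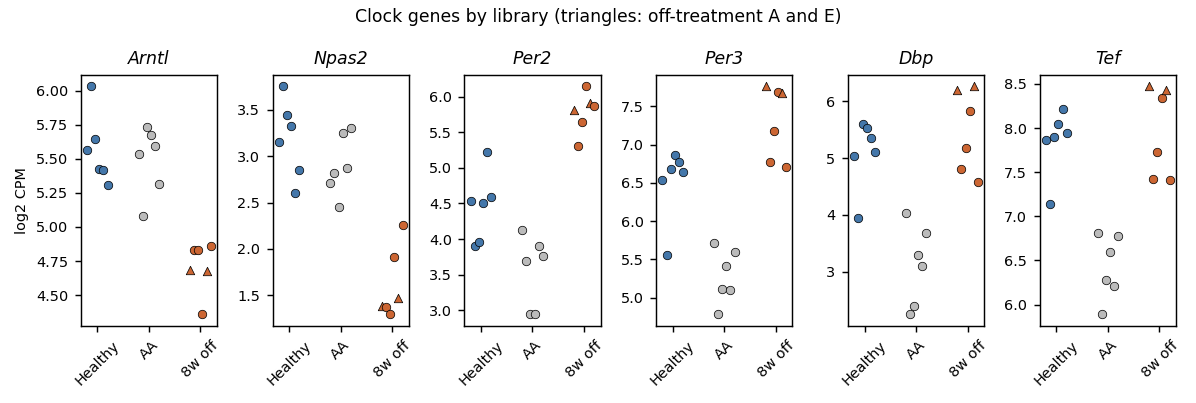
Log2 CPM of 6 clock genes in each library of healthy, AA and 8w off Tx skin, 1 point per library, with off-treatment A and E as triangles. Per2, Per3, Dbp and Tef are lower in AA than off treatment in all libraries, and Arntl and Npas2 are lower off treatment than in either other group.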

How the data were processed

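Total RNA of dorsal skin was sequenced in 24 libraries, 6 for each of healthy, AA, 4-week JAK1 inhibitor and 8w off Tx mice. Per the labels and the methods of the study, the authors aligned reads to mm10 with HISAT2 2.0.1 and counted them per gene with featureCounts 1.4.4. The library kit is described as PolyA in one label and as a ribosomal RNA depletion kit in another. The methods of the study give the depletion kit, chosen because the mouse RNA had low integrity values, and no fragmentation step. The part of RNA integrity in any difference between groups was not tested. The annotation and strand setting are not stated, nor how multiply mapped reads were handled. The authors deposited counts per gene and TPM per gene. The tables list 39017 gene IDs, of which 1410 have no symbol, and 6 columns per table match no sample and were not used.

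The deposited counts were tested with edgeR 4.0.16 in R 4.3.3, using the quasi-likelihood test after TMM normalization over all 24 libraries with a minimum count of 10, and p-values were adjusted by the Benjamini-Hochberg method over 16248 genes. Levels are CPM of TMM-scaled library sizes. Groups came from the labels, with 6 libraries per group, whose sources name 6 mice. The p-values are two-sided. They rest on a spread within groups that was estimated over all 24 libraries fitted, those of groups not compared included. With only the compared groups fitted, genes past the study thresholds against healthy skin went from 351 to 120. Calls against AA went from 222 to 18. A descriptive check of the letters A to F gave no clear sign of pairing. It held no reference from different letters, so it cannot show that no animal or litter was shared. The correlation of same-letter deviations ran from -0.23 to 0.17 for off treatment with healthy and from -0.24 to 0.41 for off treatment with AA. Total counts of 3444193 to 8472874 per library over the 3 groups set the precision, and counting intervals and floors of 3 counts per group cover counting error only.

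The genes named are the 10 largest rises and falls past the study thresholds without overlap between groups and with a mean log2 CPM of at least 1, the key genes of the lists, and 2 members of each list by smallest adjusted p and 2 by level. Against AA they are the 5 largest rises and falls. The members and lists were chosen with earlier results of these data known. The fit was tested on simulated data for this comparison over 16248 genes, where 48 of 50 genes changed 4-fold and 38 of 50 changed 2-fold were recovered and 2 of 153 calls were false. The simulation changed only a small share of the genes and gave each gene the same spread in every group. Its rates therefore need not hold for the real libraries. DESeq2 1.42.0, limma 3.58.1 with quality weights, other normalizations and filters, log2 TPM with a pseudocount of 1 or 0.1, the replicate block and leaving out libraries were alternatives. Some genes of the lists are not reported here by name. Promoter sequences are those of RefSeq on GRCm38.p6.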

Additional observations from a re-analysis of the deposited data

Results flagged for a closer look

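Of 128 groups of 6 libraries tested for a single value far from the others, 7 were set apart, and chance gives about 1 in 20. Healthy B held 3 of them. Its mean log2 difference from the healthy mean was -0.346 for antiviral interferon-stimulated genes, 1.52 for eosinophil and neutrophil genes and 2.18 for stress keratins and cornified stress genes. Off-treatment E was low in interferon-inducible GTPases, at a mean log2 difference of 1.95 against 3.47 to 4.34 in the other off-treatment libraries. Off-treatment A had the smallest total count of its group, 3444193 against 5178992 to 5766105, and off-treatment D the highest Wfdc3, at 3.42 CPM against 0.221 to 0.965 CPM. Healthy F had the most hair keratin and keratin-associated protein reads of the healthy libraries, 349 CPM against 33.8 to 117 CPM.

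Among the list genes, 16 differed between off-treatment and AA skin by the test of that difference, 9 higher and 7 lower off treatment, each with 6 libraries a group. On the log2 scale, the stress keratin Krt6b (-3.34), the clock activators Npas2 (-1.34) and Arntl (-0.80), the chemokine Ccl22 (-1.09), the fatty acid carrier Fabp5 (-1.03), elastin Eln (-1.01) and the desmosomal cadherin Dsc1 (-0.78) were lower. The factor Gata3 (0.69), the endothelial sialomucin Emcn (1.01) and the clock genes Cry2 (0.84), Ciart (0.89), Nr1d2 (1.18), Tef (1.58), Per3 (2.05), Per2 (2.18) and Dbp (2.36) were higher.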

How the results depend on the processing

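The number of genes passing an adjusted p below 0.05 against healthy skin was 5311, and was 11492 on log2 TPM with a pseudocount of 1, 11669 with 0.1 and 12593 without a filter. Leaving out each library in turn gave 4514 to 6025. The 351 genes past the study thresholds became 120 with only the 2 groups compared, 70 on TPM with a pseudocount of 1, 210 on TPM with 0.1 and no filter, 162 on centred TPM and 140 without healthy A and E, and leaving out each library gave 235 to 425. The 222 genes called against AA became 111 without a filter on low counts, 18 with only the 2 groups compared, 603 with DESeq2, 978 and 1074 on TPM with a pseudocount of 1 and 0.1, 384 on TPM without a filter, and 122 without off-treatment A and E. Leaving out each library gave 68 to 493, with 352 without AA A, 68 without AA B, 431 without AA D, 72 without AA E, 138 without AA F, 98 without off-treatment A, 493 without B, 81 without D, 130 without E and 376 without F. The replicate block gave 4951, 294 and 148 calls and within 1.5 times the same counts. On uncentred TPM the median gene moved by -0.61 against healthy skin with a pseudocount of 1 and by -0.80 with 0.1, and these genes turned negative, at the 2 pseudocounts: Il15ra -0.54 and -0.58, B2m -0.49 and -0.49, Jak3 -0.16 and -0.25, Mlkl -0.092 and -0.12, Casp1 -0.28 and -0.31, Icam1 -0.15 and -0.21, Cd3e -0.51 and -0.70, Top2a -0.12 and -0.14, Krt14 -0.52 and -0.53, Krt17 -0.30 and -0.30, Stat3 -0.30 and -0.31, Sqle -0.73 and -0.78, Il2rb -0.15 and -0.25 and H2-K1 -0.29 and -0.29. Gm5559 against AA became -0.99 and -1.05, and -0.53 on centred TPM. Without off-treatment A and E the median of 3 lists changed sign, to 0.12 for MHC class II, -0.27 for eosinophil and neutrophil genes and -0.12 for clock genes. The causes of these moves were not tested beyond the scaling itself. DESeq2 left the side of the threshold of all 145 named values against healthy skin as it was, and leaving out single libraries did so for 1667 of 1740. The depth of these libraries limits genes of a few counts, such as Ifng and Cd8b1 in healthy skin.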

Other observations

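Several gene families, counted by symbol, were chosen after their values were seen. Over all genes, 16.9% were higher and 15.7% lower with all 6 libraries, and 16.9% and 15.5% without A and E. All 6 apolipoprotein L genes tested were higher off treatment than in healthy skin (median log2 fold change 2.77 with and without A and E), among them Apol9a and Apol9b. Of 8 Schlafen genes, which act on RNA and restrict viruses, 6 were higher (7 without A and E). Of 35 cytochrome P450 genes, 4 were higher and 15 lower, and without A and E 3 and 16. Of 50 histone genes, 21 were higher and 1 lower, and without A and E 34 and 1, with a median of 0.66 and 0.91.

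By gene type, chosen after the values were seen, 91 of 14177 protein-coding genes were higher and 98 lower off treatment than in AA, against 0.726% higher and 0.64% lower over all genes. Of 93 small nucleolar RNAs 7 were higher and 0 lower, of 12 small Cajal body RNAs 2 and 0, of 255 lincRNAs 3 and 0, of 180 processed transcripts 5 and 0, of 589 processed pseudogenes 4 and 4, of 29 miscellaneous RNAs 2 and 0, of 30 sense intronic RNAs 1 and 0, of 3 ribozymes 1 and 0, and both mitochondrial ribosomal RNAs were higher. On the deposited TPM, the 10 RNAs with the highest mean over all libraries held 61.2% to 81.1% of the total in off-treatment skin and 52.4% to 62.7% in healthy skin. The short RNAs Gm24245, Gm23935 and Gm24270 together held 22.8% to 60.4% and 15.5% to 29.3%.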
